A study of Mus musculus with 8 samples.

Results

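The snoRNA host genes examined here are Gas5, Snhg1, Snhg3, Snhg4, Snhg5, Snhg6, Snhg8, Snhg12 and Snhg15, 9 long noncoding RNA genes taken by name from the table of gene counts. Their identifiers matched 10 of its 55359 rows, because 2 identifiers carry the name Snhg4, and all 10 rows passed the filter of a mean of at least 10 normalized counts over the 8 samples, as did 16309 rows in all. Total RNA was sequenced from bone marrow-derived macrophages (BMDMs, Mϕ) of wildtype C57BL/6 mice of both sexes, differentiated with M-CSF and GM-CSF, in 4 groups of 2 samples. Ctrl were naïve Mϕ. LPS were naïve Mϕ stimulated for 6 h with LPS at 100 ng/mL plus IFNγ at 100 U/mL. Eff were efferocytic Mϕ, co-cultured for 16 h with apoptotic NIH-3T3 CA fibroblasts at 5 apoptotic cells per Mϕ, and LPSEff were efferocytic Mϕ that received LPS/IFNγ afterwards for 6 h. The NIH-3T3 CA cells are a single clone of a mouse fibroblast line with a caspase-8 that a dimerizer (10 nM) switches on. The dimerizer stayed in the co-culture (methods), so that Mϕ of Eff and LPSEff were exposed to it too. None is given for Ctrl and LPS, so that an effect of the dimerizer cannot be told apart from that of efferocytosis. All samples were enriched for CD45+ cells with magnetic beads before RNA was taken. The mice were adult (over 8 weeks, methods), and nothing says whether the 2 samples of a group came from separate animals, so that p-values measure the spread between these samples.

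Small nucleolar RNAs (snoRNAs) guide the chemical modification or the cleavage of ribosomal RNA. Most mammalian snoRNAs are cut out of introns of a host transcript, and in hosts such as Gas5 and the Snhg genes the spliced exons encode no known protein, begin with a terminal oligopyrimidine tract like the mRNAs of ribosomal proteins, and are short-lived in growing cells because translation exposes them to nonsense-mediated decay. C/D box snoRNAs direct ribose methylation with Fbl, Nop56, Nop58 and Snu13, and H/ACA snoRNAs direct pseudouridylation with Dkc1, Gar1, Nhp2 and Nop10. Both kinds are protected as particles (snoRNPs) after the rest of the intron has been degraded.

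Within the 9 genes, the annotation places 30 snoRNA genes on the same strand, with 9 in Gas5, 8 in Snhg1, 4 in Snhg12, 2 each in Snhg3, Snhg4 and Snhg5, and 1 each in Snhg6, Snhg8 and Snhg15. The letters TGANG within the first 14 bases together with CTGA within the last 14, as the C and D boxes would read, were found in 17 of the 30. ACA placed 3 bases before the end, as in H/ACA snoRNAs, was found in 6 others, all of 130 to 205 bases. The 6 sequences below belong to the snoRNAs whose rows passed the test in at least 1 comparison with LPS, with or without the replicate number in the fit, and are read 5′ to 3′ from GRCm39, the build of the deposited table. Capitals mark the TGANG and CTGA letters in the first 2 sequences and ACA in the others.
Snord22 (in Snhg1, chr19:8703230-8703355, + strand): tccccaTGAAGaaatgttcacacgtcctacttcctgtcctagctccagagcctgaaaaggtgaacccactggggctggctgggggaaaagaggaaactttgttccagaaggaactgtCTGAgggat
Gm22489 (in Gas5, chr1:160863420-160863481, + strand): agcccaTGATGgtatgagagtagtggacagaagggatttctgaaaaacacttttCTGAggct
Snora16a (in Snhg12, chr4:132036776-132036911, + strand): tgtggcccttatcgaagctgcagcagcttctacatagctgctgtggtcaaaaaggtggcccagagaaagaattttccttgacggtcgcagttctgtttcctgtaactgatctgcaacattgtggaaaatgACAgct
Snora61 (in Snhg12, chr4:132037551-132037680, + strand): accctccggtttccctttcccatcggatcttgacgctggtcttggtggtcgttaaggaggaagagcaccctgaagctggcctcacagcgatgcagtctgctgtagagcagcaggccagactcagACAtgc
Snora73a (in Snhg3, chr4:132080086-132080290, - strand): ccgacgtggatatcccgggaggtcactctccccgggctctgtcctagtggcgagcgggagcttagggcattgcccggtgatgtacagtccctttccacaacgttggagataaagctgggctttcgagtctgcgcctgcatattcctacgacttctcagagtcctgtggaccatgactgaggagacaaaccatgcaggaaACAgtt
Snora73b (in Snhg3, chr4:132079633-132079837, - strand): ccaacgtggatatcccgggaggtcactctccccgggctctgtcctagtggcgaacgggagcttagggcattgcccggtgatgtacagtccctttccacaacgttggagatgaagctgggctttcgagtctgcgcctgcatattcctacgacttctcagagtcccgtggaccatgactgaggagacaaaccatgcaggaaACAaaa
Snora73a and Snora73b are identical at 198 of 205 bases, with a longest identical run of 56 bases, longer than a read of 50 cycles (methods), so that their separate values are uncertain.

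In the deposited values, none of the host genes changed past the threshold (Benjamini-Hochberg adjusted p under 0.05 in limma over all 16309 genes) in any of the 4 comparisons. LPS/IFNγ left the 10 rows with a median log2 fold change of 0.09 in naïve Mϕ and 0.19 in efferocytic Mϕ, and efferocytosis with 0.11 without and 0.26 with LPS/IFNγ. Of all genes tested, 24% were called in LPS vs Ctrl, 19.7% in LPSEff vs Eff, 0.251% in Eff vs Ctrl and 0.773% when LPSEff was set against LPS, with median log2 fold changes between -0.01 and 0.01. At an unadjusted p under 0.05 there were 1, 2, 0 and 2 host rows in the 4 comparisons, and edgeR and DESeq2 on the recovered reads called 0. With the replicate number as a block, limma called 2 lower in LPS vs Ctrl (all genes: 20.7% lower), and 2 higher and 2 lower in LPSEff vs Eff (19% and 18%), and 0 in the other 2 comparisons (2.67% and 6.97% in either direction).

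The reads counted to genes, summed over all rows, numbered 3481288 to 12020918 per sample, lowest in Ctrl replicate 1, where 3 reads are worth 5.71 normalized counts. A read counted in several rows would enter this sum with each of them. A normalized count is the read count divided by a size factor of the sample, and the difference of 2 group means is given on the scale of log2(normalized count + 1). All 10 macrophage markers were detected in every group, with summed values of 108856 to 164148. The 18 fibroblast markers summed to 8171 to 10918 in Ctrl, 8119 to 10259 in LPS, 12054 to 16261 in Eff and 16738 to 17324 in LPSEff, none at 0 in a whole group. Of these, 14 and 13 were higher without overlap in Eff than Ctrl and in LPSEff than LPS (all genes tested: 16.3% and 19.3%). Markers of T and B cells (4 genes) summed to 5.71 to 20.7, and those of neutrophils (4 genes) to 600.3 to 1912. The apoptotic fibroblasts are of mouse origin too, so that their RNA and that of Mϕ cannot be told apart in these rows, and in such bulk samples fewer cells and less RNA per cell cannot be told apart either.

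**Figure D1:**
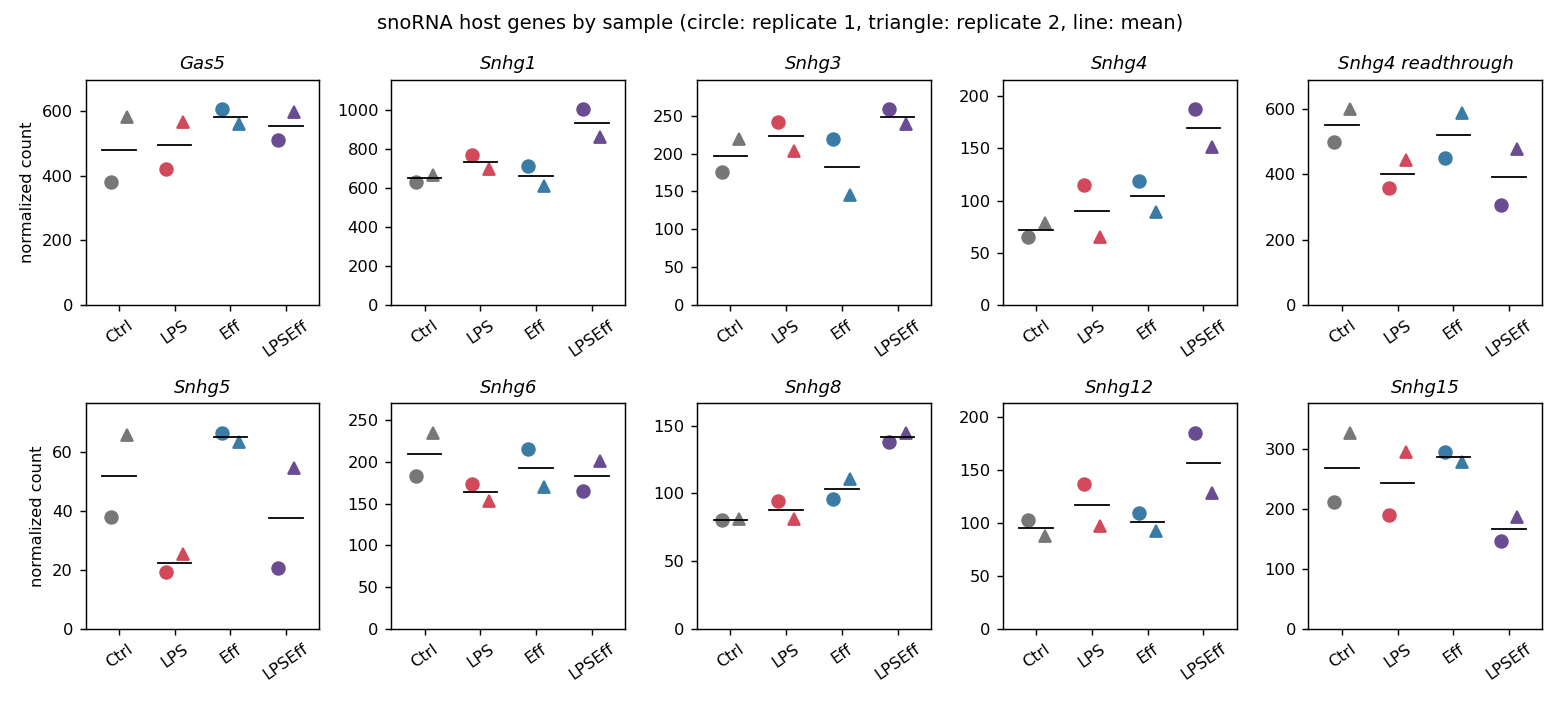
Normalized counts (linear axis from 0) of the 10 host rows in the 4 groups. Circles are replicate 1, triangles replicate 2 and lines the mean of 2 samples. Snhg1, Snhg4 and Snhg8 were highest in both LPSEff samples (from 866 to 1007 in Snhg1), whereas Snhg5 was between 19.4 and 25.4 in LPS and from 38.1 to 66.6 in Ctrl and Eff.

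Gas5, a host of C/D snoRNAs whose spliced RNA is known for accumulating when growth stops, lies on chr1:160861793-160866118. It had 381 and 582 normalized counts in Ctrl, 422 and 568 in LPS, 607 and 560.3 in the Eff samples and 511 and 598 in those of LPSEff. The groups overlapped in all 4 comparisons, and the 95% interval of the log2 difference of LPS from Ctrl reached from -0.52 to 0.63. A change of that size in either direction was therefore not resolved for the whole row.

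Snhg1 (chr19:8700319-8703812), which holds Snord22 and 7 other snoRNAs, had the most normalized counts of the 10 rows. It gave 632 and 669.7 in Ctrl, 771 and 699.7 in LPS, 715 and 612 in the Eff samples and 1007 and 866 in those of LPSEff. Both LPSEff samples lay above the other 6 samples, with a log2 difference from Eff of 0.50 ± 0.18 (SE, n = 2 per group, adjusted p = 0.0911 in limma, and 0.0161 with the replicate block).

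Snhg12 (chr4:132035905-132038762), beside Snhg3 on the other strand and the host of Snora16a, Snora44, Snora61 and Snord99, had 103 and 87.3 in Ctrl, 137 and 97.5 in LPS, 109.5 and 92.5 in the Eff samples and 185 and 128 in those of LPSEff. The LPSEff samples lay above the Eff samples by 0.61 ± 0.28 (SE, n = 2 per group) on the log2 scale, with an adjusted p of 0.178 in limma and 0.0295 with the replicate block. Snhg3 (chr4:132075325-132080997), the host of both Snora73 copies, had 175 and 219 in Ctrl, 242 and 204 in LPS, 219 and 145 in the Eff samples and 259 and 239 in those of LPSEff. Its exons share 633 of 986 bases with Rcc1 on the same strand, so that the reads of the 2 genes could not be fully separated.

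Snhg8 (chr3:123301192-123302578), the host of Snora24, had 80.0 and 81.0 in Ctrl, 94.4 and 81.2 in LPS, 95.5 and 111 in the Eff samples and 138 and 145 in those of LPSEff. The 2 LPSEff samples were above all others, and the log2 difference from LPS was 0.68 ± 0.22 (SE, n = 2 per group) with an adjusted p of 0.311 in limma. The noncoding Snhg4 row (chr18:35686424-35691369) showed a like order, with 64.7 and 78.6 in Ctrl, 115 and 65.0 in LPS, 119 and 88.9 in the Eff samples and 188 and 151 in those of LPSEff, 0.95 ± 0.33 (SE, n = 2 per group) above LPS on the log2 scale (adjusted p = 0.338 in limma). Neither difference passed the threshold over all genes.

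The second row named Snhg4 is annotated as protein coding and runs through into Matr3, an RNA-binding protein of the nuclear matrix, with which it shares 1754 of 2166 exon bases. This readthrough row had 499 and 599 in Ctrl, 358 and 443 in LPS, 450.4 and 587 in the Eff samples and 307 and 477 in those of LPSEff. The LPS samples were below both Ctrl samples by -0.46 ± 0.26 on the log2 scale (SE, n = 2 per group, adjusted p = 0.26 in limma and 0.0297 with the replicate block), and LPSEff differed from Eff by -0.42 (adjusted p = 0.316 in limma and 0.044 with the block). Since Matr3 reads may make up most of it, the row is uncertain as a measure of Snhg4.

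Snhg5 (chr9:88377321-88405615), the host of the U50 snoRNAs Snord50a and Snord50b, was the lowest row, with 38.1 and 65.9 in Ctrl, 19.4 and 25.4 in LPS, 66.6 and 63.5 in the Eff samples and 20.6 and 54.6 in those of LPSEff. Both LPS samples lay under both Ctrl samples, by -1.14 ± 0.49 on the log2 scale (SE, n = 2 per group), with an adjusted p of 0.134 in limma and 0.0246 with the replicate block. Of the efferocytic samples, LPSEff replicate 1 was low and replicate 2 close to the Eff samples.

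Snhg15 (chr11:6473829-6478870), the host of Snora9, had 211 and 328 in Ctrl, 190.1 and 297 in LPS, 295 and 279 in the Eff samples and 147 and 187 in those of LPSEff. It was lowest in the 2 LPSEff samples, and its difference from Eff was -0.79 ± 0.30 on the log2 scale (SE, n = 2 per group, adjusted p = 0.103 in limma and 0.00937 with the replicate block). Snhg6 (chr1:9926809-10014504), the host of Snord87, had 183 and 235 in Ctrl, 173 and 153 in LPS, 216 and 169 in the Eff samples and 165 and 201 in those of LPSEff, with overlap in 3 of the 4 comparisons.

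Without overlap of the 2 groups, 2 of 10 host rows were higher and 3 lower in LPS than in Ctrl (all genes: 28.4% and 30.9%), and 5 were higher and 2 lower in LPSEff than in Eff (29.5% and 30.4%). The interaction, in which the LPS/IFNγ effect in efferocytic Mϕ was compared with that in naïve Mϕ, gave no call among the host rows or among all 16309 genes in limma (0 of 10 host rows at an unadjusted p under 0.05), with log2 differences of the host rows from -0.64 to 0.43. Whether the LPS/IFNγ effect on the hosts differs after efferocytosis was thus not resolved with 2 samples per group.

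Per kilobase of annotated exons, the mean level over the 8 samples was 216 normalized counts for Snhg3, 215 for the readthrough row and 214 for Snhg1, whose sample ranges overlap, followed by 125 for Gas5, 74.4 for Snhg8, 48.0 for Snhg15, 41.1 for Snhg12, 32.5 for Snhg6, 23.3 for Snhg4 and 9.94 for Snhg5. Gas5 (90.1 to 144) overlapped Snhg8 (57.7 to 104), and from Snhg8 downwards each gene overlapped the next in its range over the samples. These levels are of the whole rows, and their order depends on the length used. Per kilobase of mean transcript length, the readthrough row (758), Snhg1 (679), Gas5 (557) and Snhg3 (479.9) came first, and Snhg8 (174) followed Snhg15 (278) and Snhg6 (243).

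In these files the host rows appear to include snoRNA reads, although the stated counting (htseq-count with its default settings) would drop a read that lies over both genes. The shares and differences given next assume that such reads were counted in both rows, as far as the files show it. Of 55 snoRNA and host pairs over all genes in which the snoRNA lies wholly in host exons and has a mean of at least 10, 52 had the snoRNA at or under the host in all samples, and 3 did not. Of the 30 snoRNA genes, 28 lie wholly and 1 partly (Snora73a, 159 of 205 bases) inside annotated exons of the host, and Snora73b lies in none. Which transcripts of the host these exons belong to was not tested. A read over a snoRNA may come from the finished snoRNA or from host RNA that still holds the same bases, and the counts cannot tell these apart. Snora16a and Snord80 are each listed under 2 overlapping identifiers with the same value in all 8 samples, as when a read over both is counted for both. The snoRNA rows in its exons never summed to more than the host row in any sample. They made up 42.2% to 89.4% of the Snhg1 row, 59.6% to 92.7% of Snhg12, 44.8% to 87.1% of Snhg3, 20.6% to 71.9% of the noncoding Snhg4 row, 18.6% to 47.1% of Snhg8 and 18.5% to 44.5% of Gas5. They were at most 14.5% of the Snhg15 and Snhg6 rows, and 0 of Snhg5 and the readthrough row.

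The share of the Snhg1 row that lay in snoRNAs was 58.7% and 47.6% in Ctrl, 89.4% and 82.7% in LPS, 51.7% and 42.2% in the Eff samples and 87.1% and 73.5% in those of LPSEff. The exact (Clopper-Pearson) 95% binomial intervals of these shares were at most 10.9 percentage points wide and cover counting error only. All 4 stimulated samples lay above all 4 others, a within-sample ratio that no size factor changes. In Snhg12 the share was 61.1% and 59.6% in Ctrl, 90.6% and 88.5% in LPS, 70.4% and 64.9% in the Eff samples and 92.7% and 86.1% in those of LPSEff, again with the stimulated samples apart. In Gas5 it was 18.5% to 24.3% in the 4 unstimulated and 30.1% to 44.5% in the 4 stimulated samples. Of the 8 host rows with snoRNA reads, 6 had a higher share in both LPS than in both Ctrl samples and 5 in both LPSEff than in both Eff samples. Among 40 snoRNA and host pairs of other genes, the share was higher without overlap in 55% and 72.5%. In these pairs it was the share of a single snoRNA, not the sum over all snoRNAs of a host. Pairs with the snoRNA above its host in any sample were left out. The counts for the 9 genes can therefore be set beside this background only roughly, and no difference from it is shown. An exact permutation test of 2 against 2 samples cannot give a p under 0.333, so that none is given for single shares.

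**Figure D2:**
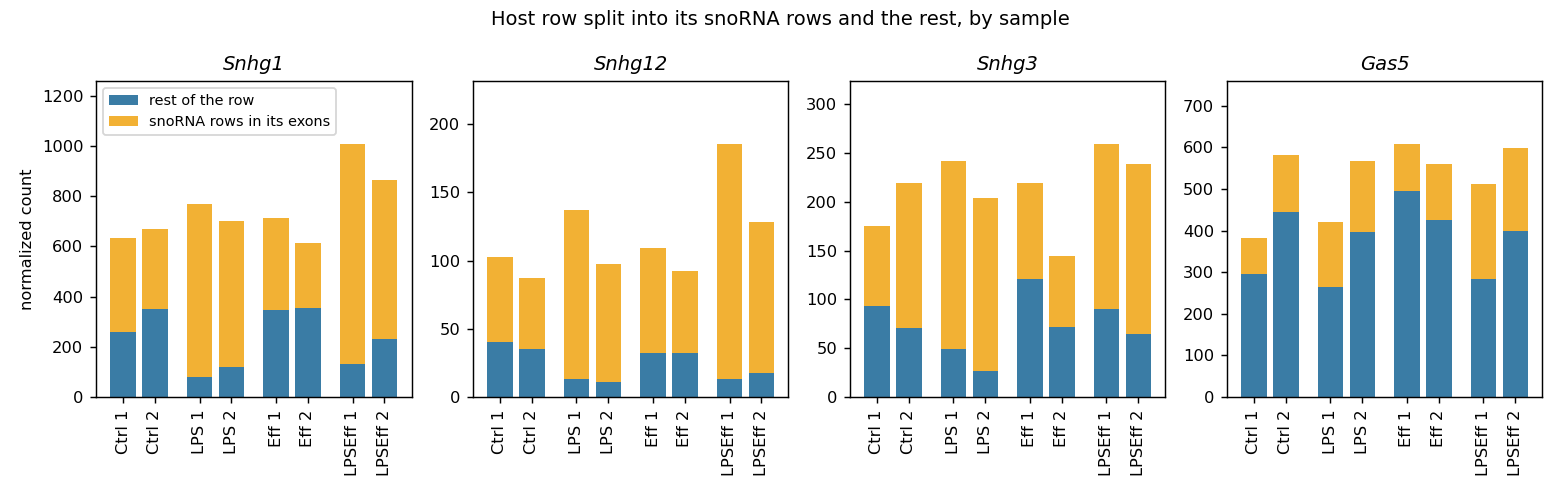
Stacked bars give the normalized count (linear axis from 0) of 4 host rows in each of the 8 samples, split into the snoRNA rows in the host's exons and the rest of the row. In Snhg1 and Snhg12 the rest is lower in the 4 samples that received LPS/IFNγ than in the 4 that did not (81.5 to 229.7 against 261 to 354 in Snhg1), while the whole bars are not.

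Once the snoRNA values were taken away, an alternative chosen after the values had been seen, all 10 host rows were lower on average in LPS than in Ctrl, with a median log2 fold change of -0.43, and 9 of 10 in LPSEff than in Eff, with a median of -0.43. Of the whole rows, 4 and 5 were already lower in these comparisons, and nothing was taken from Snhg5 and the readthrough row. In limma 2 rows, Snhg1 and Snhg12, fell in LPS vs Ctrl (all genes: 11.6% lower) and 0 were called in LPSEff vs Eff (8.95%), where 3 had an unadjusted p under 0.05 and edgeR called 1. With the replicate block 5 and 4 rows fell (20.7% and 18%). The rest of Snhg1 had 261 and 351 normalized counts in Ctrl, 81.5 and 121 in LPS, 345 and 354 in the Eff samples and 129.8 and 229.7 in those of LPSEff, with all stimulated samples under all others. It fell by 1.60 on the log2 scale with LPS/IFNγ in naïve Mϕ (SE 0.32, n = 2 per group, adjusted p = 0.00907 in limma), and its difference in efferocytic Mϕ was -1.01 (SE 0.32, adjusted p = 0.0618 in limma and 0.00235 with the replicate block). The whole Snhg1 row was not called without the block, and was called higher with it in LPSEff vs Eff, while its Snord22 reads were higher and its remaining reads lower on average after LPS/IFNγ.

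The rest of Snhg12 had 40.0 and 35.3 in Ctrl, 12.9 and 11.2 in LPS, 32.4 and 32.5 in the Eff samples and 13.5 and 17.8 in those of LPSEff. In LPS replicates 1 and 2, 96 of 106 and 85 of 96 reads of the whole row lay in snoRNAs, so that few reads remained. The filter on low values was applied to the whole row, not to this rest. The rest of Snhg12 fell by 1.57 in LPS vs Ctrl (SE 0.37, n = 2 per group, adjusted p = 0.0169 in limma) and differed by -1.02 in LPSEff vs Eff (SE 0.37, adjusted p = 0.0893 in limma and 0.0445 with the replicate block). Both calls rest on few samples, since leaving out Ctrl replicate 1 or LPS replicate 2 left 1 call, and leaving out Ctrl replicate 2 left 0. The rest of Snhg3 had 93.3 and 70.6 in Ctrl, 49.1 and 26.4 in LPS, 121 and 71.3 in the Eff samples and 90.3 and 64.7 in those of LPSEff, a difference of -1.15 in LPS vs Ctrl (SE 0.40, adjusted p = 0.0736 in limma and 0.00273 with the replicate block). For Snhg3 the whole Snora73a row was taken away, although 159 of its 205 bases lie in the host's exons. The values of Snora73a and Snora73b are also not surely separate. More reads may thus have been taken away than the Snhg3 row held from Snora73a, and their part in this difference was not tested. The rest of Gas5 overlapped between LPS and Ctrl, with 264 and 397 against 295 and 444, and its difference was -0.16 (SE 0.30, adjusted p = 0.754 in limma). Between LPSEff and LPS, the rest of Snhg1 differed by 0.79 and that of Snhg3 by 1.06 (adjusted p = 0.446 and 0.401 in limma, 0.039 and 0.0246 with the replicate block, which called 6.98% of all genes), and none was called in Eff vs Ctrl, where 0 had an unadjusted p under 0.05. Fibroblast markers were higher in the efferocytic groups, as given above, and their part in these differences was not tested.

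**Figure D3:**
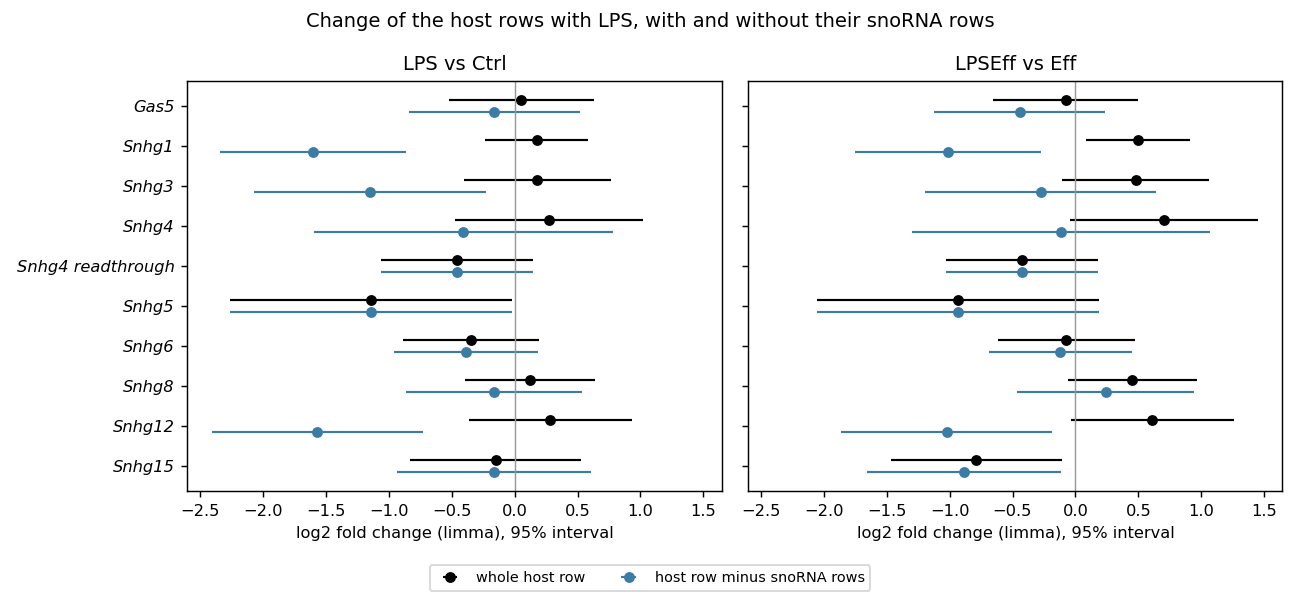
Points are log2 fold changes of the 10 host rows from limma with 95% intervals (n = 2 per group), for LPS vs Ctrl and LPSEff vs Eff. The whole rows (black) lie on both sides of 0, and after the snoRNA rows are taken away (blue) all 10 are below 0 in LPS vs Ctrl, with Snhg1 (-1.60) and Snhg12 (-1.57) lowest.

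Snord22, the snoRNA of Snhg1 known as U22, is needed for maturation of the 18S ribosomal RNA, and its sequence is given above. Reads over its bases were higher with LPS/IFNγ in both kinds of Mϕ, and whether they came from the finished snoRNA was not tested. Its row had 352 and 281 normalized counts in Ctrl, 648 and 546 in LPS, 345 and 212 in the Eff samples and 819 and 598 in those of LPSEff. The stimulated samples were all above the unstimulated ones. The log2 fold change was 0.92 (SE 0.28, n = 2 per group, adjusted p = 0.047 in limma) in LPS vs Ctrl and 1.37 (SE 0.28, adjusted p = 0.0114 in limma) in LPSEff vs Eff. The first call was lost in edgeR (adjusted p = 0.0589) and on leaving out any of the 4 samples compared or either LPSEff sample (0.053 to 0.214 in limma), and the second without Eff replicate 2 (0.0717) or LPSEff replicate 1 (0.0824). With samples rescaled to equal totals, which moves the median gene by -0.40 and -0.44, the log2 differences of Snord22 were 0.52 and 0.92 and neither was called (adjusted p = 0.236 and 0.0527 in limma). The differences of Eff from Ctrl (-0.22) and of LPSEff from LPS (0.23) were not called.

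Of the 30 snoRNA rows, 13 passed the filter on low values, 17 did not, and Snord50a and Snord50b of Snhg5 had no read in any sample, which allows for at most 1.73 to 5.71 normalized counts (3 reads per sample). Among the 13, 12 had a positive log2 fold change in LPS vs Ctrl (median 0.74) and 12 in LPSEff vs Eff (median 0.80), against a median near 0 over all genes. Snord22 was the only call in either comparison (all genes: 12.4% and 10.7% higher). With the replicate block 6 and 4 were called higher and 0 lower (20.5% and 19% of all genes higher). In both comparisons for efferocytosis, 0 were called in limma (0 and 0 at an unadjusted p under 0.05) and 0 with the block. Among 93 tested snoRNAs of other hosts, the medians were 0.59 and 0.92, with 4 and 16 called higher and 0 lower, so that the snoRNAs of the 9 genes do not stand apart from other hosted snoRNAs.

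The ribosomal RNA processing snoRNAs Snora73a and Snora73b (U17), which act in cleavage of the precursor rather than in pseudouridylation, followed Snord22 in level. Snora73a had 81.9 and 149 in Ctrl, 193 and 178 in LPS, 98.1 and 73.4 in the Eff samples and 169 and 174 in those of LPSEff. Its log2 differences were 0.74 and 1.00 in the comparisons with LPS/IFNγ in naïve and efferocytic Mϕ (adjusted p = 0.124 and 0.0542 in limma, 0.0484 and 0.0135 with the replicate block). Snora73b had 51.4 and 156 in Ctrl, 225 and 196 in LPS, 107 and 83.3 in the Eff samples and 173 and 156 in those of LPSEff. Ctrl replicate 1, the sample with the fewest reads, was the lowest of all 8, and the difference in LPS vs Ctrl of 1.22 (adjusted p = 0.0895 in limma and 0.0273 with the replicate block) was 2.01 without Ctrl replicate 2 and 0.43 without Ctrl replicate 1 (adjusted p = 0.00756 and 0.394).

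Snora61 of Snhg12 had 28.6 and 24.9 in Ctrl, 56.9 and 45.7 in LPS, 43.8 and 33.9 in the Eff samples and 84.7 and 64.7 in those of LPSEff. Its differences of 0.91 and 0.92 with LPS/IFNγ had adjusted p-values of 0.0698 and 0.0753 in limma, and of 0.0165 and 0.0169 with the replicate block. Snora16a of the same host had 17.1 and 13.3 in Ctrl, 55.6 and 31.5 in LPS, 27.2 and 19.1 in the Eff samples and 60.2 and 29.2 in those of LPSEff, with differences of 1.41 and 0.85 (adjusted p = 0.0653 and 0.261 in limma, and 0.00583 for LPS vs Ctrl with the block). Gm22489 of Gas5 had 22.9 and 71.1 in Ctrl, 84.1 and 96.5 in LPS, 40.3 and 59.3 in the Eff samples and 118 and 103 in those of LPSEff. It was thus higher in each stimulated group without overlap, with differences of 1.13 and 1.16 (adjusted p = 0.133 and 0.139 in limma, 0.0287 and 0.0291 with the block).

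**Figure D4:**
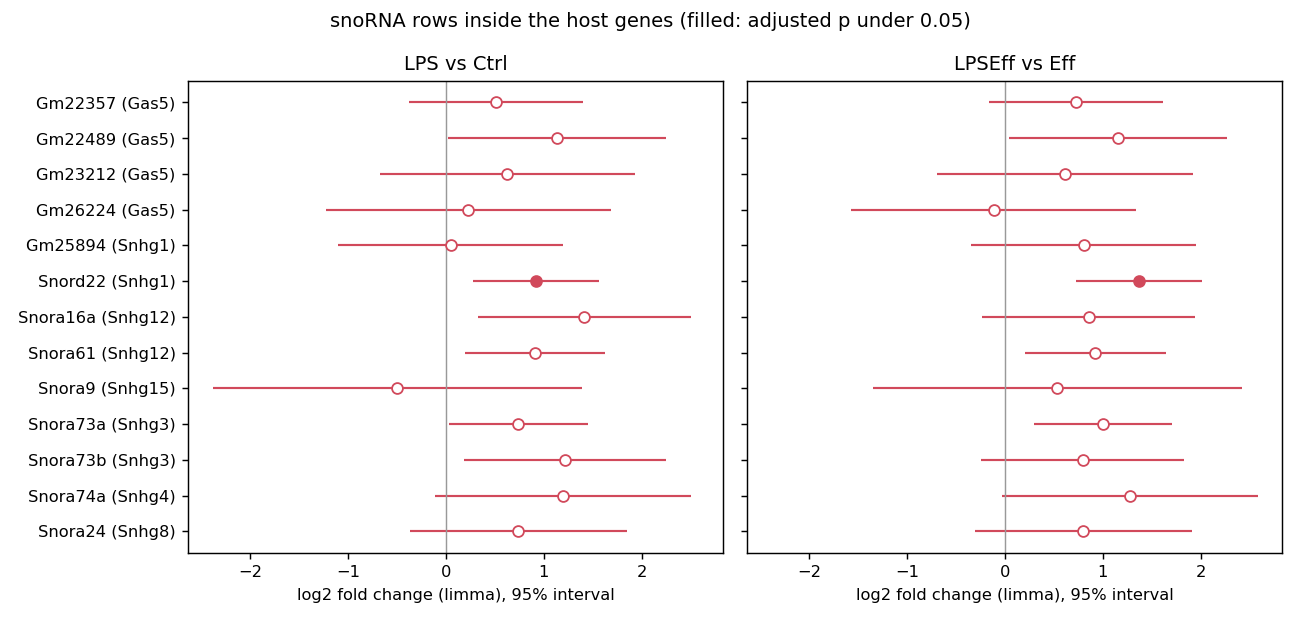
Points are log2 fold changes with 95% intervals (limma, n = 2 per group) of the 13 tested snoRNA rows inside the host genes, with the host in brackets. In both panels 12 of 13 lie above 0, and Snord22, the filled point, passed the threshold (0.92 and 1.37).

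Other long noncoding hosts of snoRNAs, a list written from general knowledge, held 8 tested genes with median log2 fold changes of -0.28 and -0.22 in the 2 comparisons with LPS/IFNγ. Snhg17 fell by 1.85 (SE 0.36, n = 2 per group, adjusted p = 0.00786 in limma) in LPS vs Ctrl, with 196 and 164 normalized counts in Ctrl and 71.1 and 33.5 in LPS. Snhg16 fell by 1.43 (SE 0.37, adjusted p = 0.0257 in limma) in naïve and by 1.47 (adjusted p = 0.0265 in limma) in efferocytic Mϕ. These are 2 and 1 of 8 genes called lower, beside 11.6% and 8.95% of all genes. With the replicate block 2 were higher and 2 lower in LPS vs Ctrl (all genes: 20.5% and 20.7%), and 2 and 3 in LPSEff vs Eff (19% and 18%), where Snhg17 was among the 3 (-1.04, adjusted p = 0.0825 in limma and 0.00805 with the block). The 2 higher were Snhg20 (0.42 and 0.60, adjusted p = 0.226 and 0.102 in limma, 0.0469 and 0.0097 with the block) and Dancr (0.81 and 1.32, adjusted p = 0.269 and 0.0921 in limma, 0.0212 and 0.00166 with the block). Dancr was also higher in LPSEff vs LPS (1.01, adjusted p = 0.538 in limma and 0.0345 with the block). Among 242 tested protein-coding genes with a snoRNA inside them, 15 rose and 34 fell in LPS vs Ctrl, 13 and 24 in LPSEff vs Eff, 0 and 0 in Eff vs Ctrl, and 7 and 1 in LPSEff vs LPS. In LPS vs Ctrl these are 6.2% higher and 14% lower, beside 12.4% and 11.6% of all genes, and in LPSEff vs Eff 5.37% and 9.92%, beside 10.7% and 8.95%, so that the falls lie near the background and the rises below it. In Eff vs Ctrl 0% of these hosts were called, beside 0.251% of all genes in either direction. In LPSEff vs LPS 2.89% of these hosts were higher and 0.413% lower, beside 0.773% of all genes called in either direction. The 7 higher rows include the protocadherins named below, which cannot be counted apart, so that this share is uncertain. Their largest called falls in LPS vs Ctrl were those of Dkc1 (-2.86), Ppan (-2.22) and Gnl3 (-2.06), which act in ribosome or snoRNP formation, and their largest called rises those of Tex14 (2.45), Rnf180 (2.19) and the phagocytic receptor Mertk (1.89). In LPSEff vs LPS, the largest called rises were in Pcdhga5 (1.67), Pcdhga2 (1.66) and Pcdhga3 (1.64), protocadherins that share exons and so cannot be counted apart, and Frmd4b fell by 1.54.

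Of 21 proteins of snoRNPs and their assembly, 7 fell and 0 rose with LPS/IFNγ in naïve Mϕ, and 5 fell and 0 rose in efferocytic Mϕ, with medians of -0.65 and -0.37. These are 33.3% and 23.8% of the list, beside 11.6% and 8.95% of all genes called lower. Dkc1, the pseudouridine synthase of H/ACA particles, had 263 and 257 normalized counts in Ctrl, 31.0 and 39.6 in LPS, 298 and 285 in the Eff samples and 77.6 and 119 in those of LPSEff. It fell by 2.86 (SE 0.26, n = 2 per group, adjusted p = 0.000266 in limma) in naïve and by 1.59 (SE 0.26, adjusted p = 0.00461 in limma) in efferocytic Mϕ. Nolc1, a chaperone of snoRNPs in the nucleolus, fell by 2.38 and 1.62, and Nop58, which forms the core of C/D particles with Nop56, fell by 1.94 and 1.29 in naïve and efferocytic Mϕ (adjusted p from 0.00122 to 0.0132 in limma). Nop56 was called lower in both as well. Gar1, Shq1 and Nhp2, all of the H/ACA class, completed the 7 in naïve Mϕ, and Nhp2 the 5 in efferocytic Mϕ. In LPSEff vs LPS 0 were called in limma (all genes: 0.773% in either direction). There 9 had an unadjusted p under 0.05, for which no share of all genes was taken. With the replicate block 4 were called in limma, all higher, which is 19% of the list beside 6.97% of all genes in either direction. Among them was Dkc1 (1.43, adjusted p = 0.00396 in limma with the block).

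**Figure D5:**
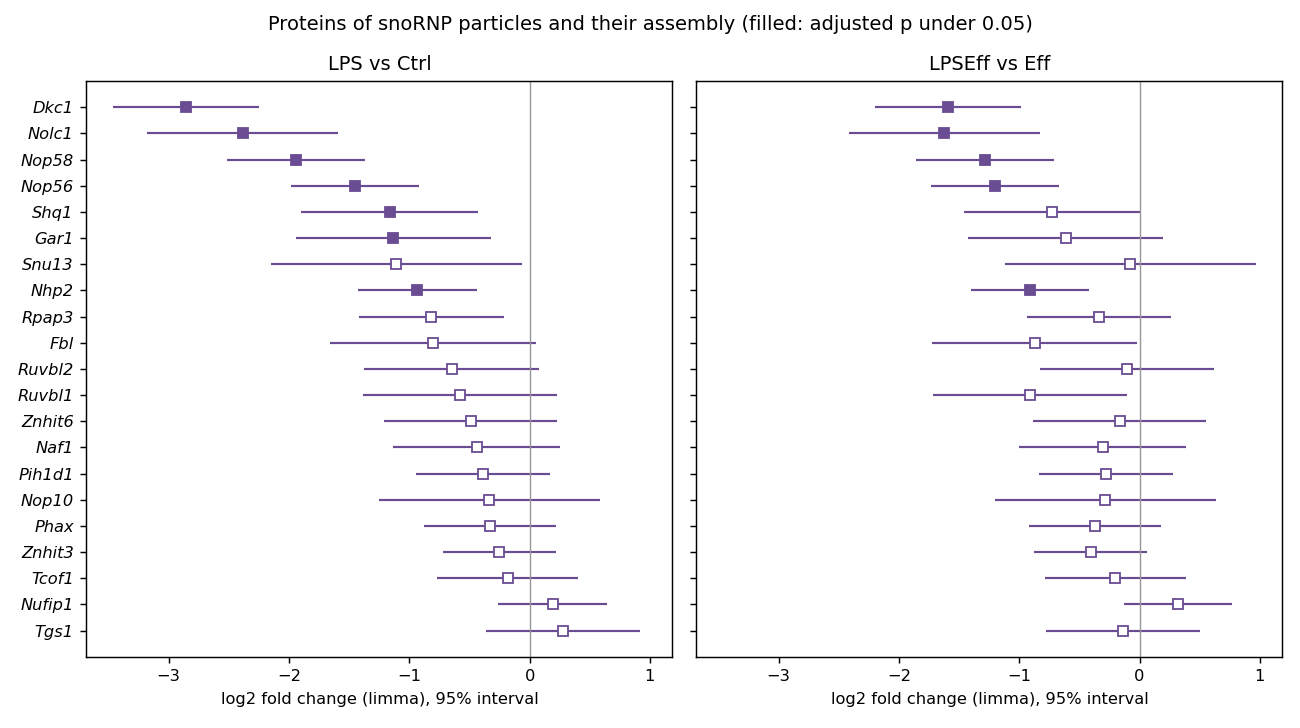
Points are log2 fold changes with 95% intervals (limma, n = 2 per group) of 21 snoRNP proteins and assembly factors, filled where the adjusted p was under 0.05. Of the filled points, 7 in LPS vs Ctrl and 5 in LPSEff vs Eff, all lie below 0, with Dkc1 at -2.86 and -1.59.

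The 16 factors of nonsense-mediated decay had median log2 differences of -0.05 with LPS/IFNγ in naïve and -0.07 in efferocytic Mϕ, and 0 were called in either comparison for efferocytosis in limma (0 and 0 at an unadjusted p under 0.05). Upf2, a core decay factor that binds Upf1, had differences of 0.62 and 0.52 (adjusted p = 0.175 and 0.271 in limma, 0.0176 and 0.0423 with the replicate block).

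Across the 8 samples, the 10 host rows did not follow a single pattern, with Pearson correlations between pairs of rows from -0.91 to 0.92 (45 pairs, median 0.17), a description over samples that share depth and, for neighbouring genes, reads. The mean of their standardized values was lowest in Ctrl replicate 1 (-0.63) and highest in LPSEff replicate 2 (0.60). The 5 other genes with a mean of at least 50 that followed this mean most closely were Rhbdd3 (r = 0.91), Fdx1, the mitochondrial electron carrier (r = 0.87), Tfpt (r = 0.86), Kctd3 (r = 0.86) and the proteasome subunit Psmb3 (r = 0.86), over 8 samples.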

How the data were processed

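Total RNA of 8 samples (4 groups, n = 2) was sequenced. Per the methods, the authors depleted ribosomal RNA, trimmed 50-cycle single-end reads (cutadapt), removed ribosomal reads (bowtie2), aligned to mm39 (STAR) and counted per gene (htseq-count at its defaults). The deposited signal values are DESeq2 normalized counts, that is reads divided by 1 size factor per sample. Tool versions and the annotation release are not given in the sources used here. Every value was a whole multiple of 1 read (tolerance 0.001), which returned the reads counted per gene. These summed to 3481288 to 12020918 per sample over all rows, and 3 reads are worth 1.73 to 5.71 normalized counts. Those defaults drop a read over 2 genes, yet in 52 of 55 pairs the snoRNA row was at or under the row of the host around it in all samples, and 3 pairs broke this. That reads were counted in both rows is therefore an assumption behind every share and every host value without snoRNA reads.

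Names (54749 of 55359 identifiers), exons and sequences came from GENCODE M39 and GRCm39, which may not be the authors' release. Sequences of Snhg4 and its snoRNAs, and the result of 1 listed decay factor, are not reported here. Groups were compared with limma 3.58.1 (R 4.3.3, trend, two-sided) on log2(normalized count + 1), for 16309 genes with a mean of at least 10, in 1 fit of the 4 groups, with Benjamini-Hochberg adjustment over all of them and a threshold of 0.05, a log scale that understates changes of low genes. Adjusted p-values are from this fit unless edgeR 4.0.16 or DESeq2 1.42.0, both run on the recovered reads, is named. On simulated counts with a single spread setting and no shared replicate effect, unlike these data, limma recovered 160 of 192 changed genes, with 20 false calls. True changes can thus go uncalled. Samples of the same replicate number deviated together (r of deviations from the group means 0.404 to 0.595 over 6 pairs of groups), so values with that number as a block stand beside the results of named genes whose call it changes, and list counts with the block are given as counts. The labels give the numbers without saying what they share.

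The whole value of a snoRNA was taken from a host row where any base of the snoRNA lies in the host's exons. Members and lists were chosen with earlier results of these data known. Named were all members, the 3 tested snoRNAs with the highest mean and any called, up to 3 called genes per list and direction with the largest change, and the 5 genes most like the members' mean. Further snoRNP and decay factors, Snhg20, Dancr, and Snhg17 in LPSEff vs Eff, were named after their values were seen. Alternatives were other pseudocounts, filters, normalizations, tests, samples, transcript lengths and leaving out each sample.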

Additional observations from a re-analysis of the deposited data

How the results depend on the processing

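Neither the replicate block nor edgeR, DESeq2 or leaving out 1 sample gave a call of a whole host row in Eff vs Ctrl, LPSEff vs LPS or the interaction. Over all genes, edgeR called 3991, 3509, 14 and 126 and DESeq2 3954, 3519, 204 and 368 for LPS/IFNγ in naïve and efferocytic Mϕ and for efferocytosis without and with LPS/IFNγ, and both 0 in the interaction. Per kilobase of mean transcript length in place of all exons, the levels of all 10 host rows moved by more than their spread and changed order. With the replicate block, host calls numbered 2 in LPS vs Ctrl and 4 in LPSEff vs Eff, and calls of their snoRNAs 6 and 4. In the lists the block gave 4, 5 and 1 calls among 8 other noncoding hosts (LPS vs Ctrl, LPSEff vs Eff, LPSEff vs LPS). Among 242 protein-coding hosts it gave 97, 95, 9 and 22 (the 9 for Eff vs Ctrl). It gave 17, 37 and 1 among 93 other hosted snoRNAs, and 3 and 2 among 16 decay factors. For LPSEff vs LPS it gave 4 among 21 snoRNP proteins. Of all 16309 genes the block called 6717 for LPS vs Ctrl, 6033 for LPSEff vs Eff, 436 for Eff vs Ctrl and 1137 for LPSEff vs LPS. Of the protein-coding hosts, 13.2% were higher and 26.9% lower in LPS vs Ctrl, beside 20.5% and 20.7% of all genes.

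Rescaling to equal totals moved the median gene by -0.40 in LPS vs Ctrl and -0.44 in LPSEff vs Eff. Host calls were then 3 and 2 of 10 (all genes: 5735 and 5578 of 16309), all calls of their snoRNAs were lost (0 and 0), and in LPS vs Ctrl the log2 differences of Gas5 (-0.35), Snhg1 (-0.23), Snhg3 (-0.22), Snhg4 (-0.12), Snhg8 (-0.28) and Snhg12 (-0.11) turned negative, as did Snora16a in LPSEff vs LPS (-0.0329) and the interaction of the Snhg4 readthrough row (-0.0176). Relative to the shifted median, those 6 host values are not lower. Quantile normalization turned Gas5 (-0.0474) and Snhg1 (-0.0223) in LPS vs Ctrl and Snora16a in LPSEff vs LPS (-0.0498), with 0 and 2 snoRNA calls. In LPS vs Ctrl, testing genes with a mean above 0 or using edgeR left 0 snoRNA calls. In LPSEff vs Eff, 2 snoRNAs were called with a mean of at least 50, in edgeR and in DESeq2, and 3 in a fit of the groups compared. Eff vs Ctrl turned for Snora73b (-0.19 in edgeR, -0.15 in DESeq2) and Gm22489 (-0.0033 in edgeR).

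Taking the snoRNA values away, with or without the block, turned LPS vs Ctrl for Gas5 (-0.16), Snhg1 (-1.60), Snhg3 (-1.15), Snhg4 (-0.41), Snhg8 (-0.16) and Snhg12 (-1.57), LPSEff vs Eff for Snhg1 (-1.01), Snhg3 (-0.28), Snhg4 (-0.11) and Snhg12 (-1.02), and Eff vs Ctrl for Snhg3 (0.19) and Snhg12 (-0.21). Calls were then 2 and 0 in the comparisons with LPS, and 5 and 4 with the block (all genes: 20.7% and 18% lower). The block also gave 2 when LPSEff was set against LPS (all genes: 6.98% in either direction). With equal totals there were 6 and 5, beside 5735 and 5578 of 16309 genes with the whole rows, where the median gene moved by -0.40 and -0.44. In edgeR there were 2 and 1, beside 3991 and 3509 genes with the whole rows.

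Leaving out 1 sample changed the number of these calls and of the snoRNA calls, down to 0 in some fits. It turned the sign of values that were not called. In LPS vs Ctrl the range was -0.25 to 0.36 for Gas5, -0.47 to 0.17 for Snhg15 and -0.13 to 0.68 for Snhg4, and in LPSEff vs Eff -0.25 to 0.10 for Snhg6 and -0.19 to 0.0352 for Gas5. In Eff vs Ctrl it was -0.0886 to 0.14 for Snhg1, -0.0068 to 0.42 for the rest of Snhg1, -0.0193 to 0.76 for Snhg5, -0.19 to 0.44 for Snhg15, -0.44 to 0.16 for Snhg3, -0.28 to 0.10 for the Snhg4 readthrough row, -0.30 to 0.0636 for Snhg6, -0.0353 to 0.21 for Snhg12, -0.72 to 0.86 for Snora73b, -0.53 to 1.07 for Gm22489, -0.80 to 0.0514 for Snora73a and -0.56 to 0.13 for Snord22. In LPSEff vs LPS it was -0.039 to 0.39 for Gas5, -0.37 to 0.26 for the Snhg4 readthrough row, -0.51 to 0.51 for Snora16a and -0.10 to 1.26 for Snhg5, and in the interaction -0.44 to 0.17 for Gas5, -0.29 to 0.35 for the Snhg4 readthrough row and -0.47 to 0.89 for Snhg5. The causes were not tested. A sample left alone in its group was assumed to vary like the other groups.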
